A study of Mus musculus with 63 samples.

Results

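PDGFR-β+ cells were the stromal population of this mouse kidney study, and the question here was which microRNAs (miRNAs) set them apart in healthy tissue. Small RNA was sequenced from 4 cell populations sorted by flow cytometry from sham-operated kidneys of 4 male C57BL/6 mice aged 8 to 12 weeks. PDGFR-β+ cells came from the CD45-CD31- gate, endothelial cells (ECs) were CD45-CD31+, macrophages (Macs) were CD45+F4/80hi and proximal tubule cells (PT cells) were CD45-CD31-LTL+. The 4 PDGFR-β+ libraries and the 12 libraries of the other populations were taken by the sham condition and the sort named in their titles, and make up 16 of the 63 libraries in the series. No transgene, drug or injury was applied in these groups, and each mouse gave 1 library of every population. The cells came from digested renal cortex, and the sort combines all PDGFR-β+ cells in it. The mice sequenced were those nearest their group mean of the injury marker KIM-1. All loci of mature miRNAs were examined, 2110 in number, of which 478 had enough reads to be tested.

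PDGFR-β is a receptor tyrosine kinase carried in the kidney by pericytes, mesangial cells and interstitial fibroblasts, the cells that give rise to scar-forming myofibroblasts after injury. A miRNA is cut from a hairpin transcript, and the strand kept from the 5′ arm or the 3′ arm is loaded into an Argonaute protein, where it guides repression of messenger RNAs. Target choice rests largely on the seed, bases 2 to 8 of the mature strand, so miRNAs that share a seed are counted as a family. Many miRNAs lie in clusters that are made from a common primary transcript or in the introns of genes.

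The sequences that the results turn on follow, each written 5′ to 3′ with the seed in capitals. They were taken from RefSeq for GRCm38.p6, where 422 of the 478 tested loci were matched by name and coordinates and 1 by name only. The first set holds strands that were most abundant in PDGFR-β+ cells relative to the other populations. The strand of miR-199a-3p is identical to that of miR-199b-3p.
miR-34b-5p: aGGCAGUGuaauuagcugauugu
miR-34b-3p: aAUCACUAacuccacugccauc
miR-199a-5p: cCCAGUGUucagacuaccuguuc
miR-199a-3p: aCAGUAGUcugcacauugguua
miR-214-5p: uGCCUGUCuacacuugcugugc
miR-214-3p: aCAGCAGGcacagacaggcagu
miR-351-5p: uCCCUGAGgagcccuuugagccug
miR-450a-5p: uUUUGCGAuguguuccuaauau
miR-542-3p: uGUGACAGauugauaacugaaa

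The second set pairs miRNAs of a common seed that lay on opposite sides of the comparison or differed in their order across populations. The seed AGCAGCA is shared by miR-497a-5p, miR-195a-5p, miR-322-5p, miR-15a-5p and miR-15b-5p, the seed CAGUGCA by miR-148a-3p, miR-148b-3p and miR-152-3p, and the seed AGUGCAA by miR-130a-3p, miR-301a-3p and miR-130b-3p. miR-34a-5p has the seed of miR-34b-5p. miR-10a-5p and miR-10b-5p share ACCCUGU and differ by 1 substitution, U12A, with the base of miR-10a-5p first and positions counted from 1 at the 5′ end.
miR-497a-5p: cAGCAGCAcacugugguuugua
miR-195a-5p: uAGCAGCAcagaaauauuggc
miR-322-5p: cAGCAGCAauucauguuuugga
miR-15a-5p: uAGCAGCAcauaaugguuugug
miR-15b-5p: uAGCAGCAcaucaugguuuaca
miR-148a-3p: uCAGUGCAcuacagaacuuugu
miR-148b-3p: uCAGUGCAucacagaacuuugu
miR-152-3p: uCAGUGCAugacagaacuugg
miR-130a-3p: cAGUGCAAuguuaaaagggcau
miR-301a-3p: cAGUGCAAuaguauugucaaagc
miR-130b-3p: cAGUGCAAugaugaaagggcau
miR-34a-5p: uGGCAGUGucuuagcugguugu
miR-10a-5p: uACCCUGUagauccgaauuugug
miR-10b-5p: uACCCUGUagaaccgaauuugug

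The third set holds strands with a locus that was lower in PDGFR-β+ cells than in each other population. For miR-92a-3p this was the locus on the X chromosome. Its locus on chromosome 14, of the same sequence, was not called against PT cells.
miR-92a-3p: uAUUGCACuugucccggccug
miR-1249-3p: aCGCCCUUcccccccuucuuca
miR-155-5p: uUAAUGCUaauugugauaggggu
miR-221-3p: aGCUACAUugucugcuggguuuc
miR-222-3p: aGCUACAUcuggcuacugggucu
miR-191-5p: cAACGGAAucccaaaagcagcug

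Library totals ran from 622689 to 10819385 counts, with 2732682 to 7932031 in PDGFR-β+ cells and the fewest in PT cells. Levels are given as CPM, counts scaled to a common library total, after TMM scaling, a factor per library that keeps a few very abundant miRNAs from lowering all others. The factors were 0.624 to 0.793 in PDGFR-β+ cells, and the 10 most abundant loci took 80.9% to 82.6% of their counts. A count of 3, used as the smallest a library can show, equals 0.554 to 1.44 CPM in PDGFR-β+ cells and 2.28 to 3.46 CPM in PT cells, so absence in PT cells is the least certain. These floors cover counting error only. Replicates of a population correlated at 0.960 to 0.989 across loci in log2 CPM. In that space the PDGFR-β+ library of a mouse lay 37.4 to 44.3 units from the EC library of the same mouse, 56.7 to 62.4 from its Mac library and 58.4 to 60.7 from its PT library, so in all 4 mice ECs were the nearest population. The distance is Euclidean over the 478 loci.

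Both miRNAs that had been set as markers of the PDGFR-β+ sort were in keeping with the label. miR-143-3p took 24.2%, 27.1%, 24.9% and 26.0% of all counts in the PDGFR-β+ libraries of mice 1 to 4, and 0.205% to 1.62% in the other 12. miR-199a-5p from chromosome 1 lay between 510 and 618 CPM in PDGFR-β+ cells and at most at 60.1 CPM elsewhere. Markers of the other sorts were low but present. The endothelial miR-126a-5p averaged 1917 CPM, 1.43% of its EC level, the haematopoietic miR-142a-5p 73.1 CPM, 0.216% of its Mac level, and the tubular miR-192-5p 2951 CPM, 2.47% of its PT level.

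The comparison was read both as the difference of PDGFR-β+ cells from the mean of the other 3 populations and as the difference from each of them. Apart from the alternative settings given below, every fit used edgeR's quasi-likelihood test with the mouse as a block. A locus was called at a Benjamini-Hochberg FDR under 0.05 with a fold change above 1.5. Against the mean, 138 of 478 loci (28.9%) were higher in PDGFR-β+ cells and 26.2% were lower. Against ECs 80 loci (16.7%) were higher and 130 (27.2%) lower, against Macs 173 (36.2%) and 157 (32.8%), and against PT cells 148 (31%) and 140 (29.3%). The higher calls made up 52.5% of calls against the mean, and 27.3% when the libraries were scaled by their totals alone, which moved the median log2 difference of all loci from -0.23 to -0.97. A call stands for a difference relative to the other miRNAs of the library, and fewer copies per cell cannot be told apart from fewer cells that carry the miRNA.

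Higher than in each of the other populations were 44 loci (9.21% of those tested), and lower than in each were 34 (7.11%). Of the 44 loci, 18 kept this call in all 11 alternative settings of the same loci (other tools, scalings, filters, thinning or a mouse left out) and 7 in fewer than 6. Of the 34, 17 kept it in all 11. The 44 loci ran from miR-101a-3p, 1.50-fold above the next population and called in 2 of the settings, to miR-34b-5p, 55.0-fold above it. The fold of miR-34b-5p is uncertain, as its EC mean of 0.453 CPM lies below the floor of 3 counts in ECs (0.477 to 0.593 CPM). The next highest population was ECs for 32 of the 44 loci, PT cells for 8 and Macs for 4. All 4 PDGFR-β+ libraries lay above all 12 others at 49 loci (10.3%) and below all of them at 31 (6.49%).

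**Figure D1:**
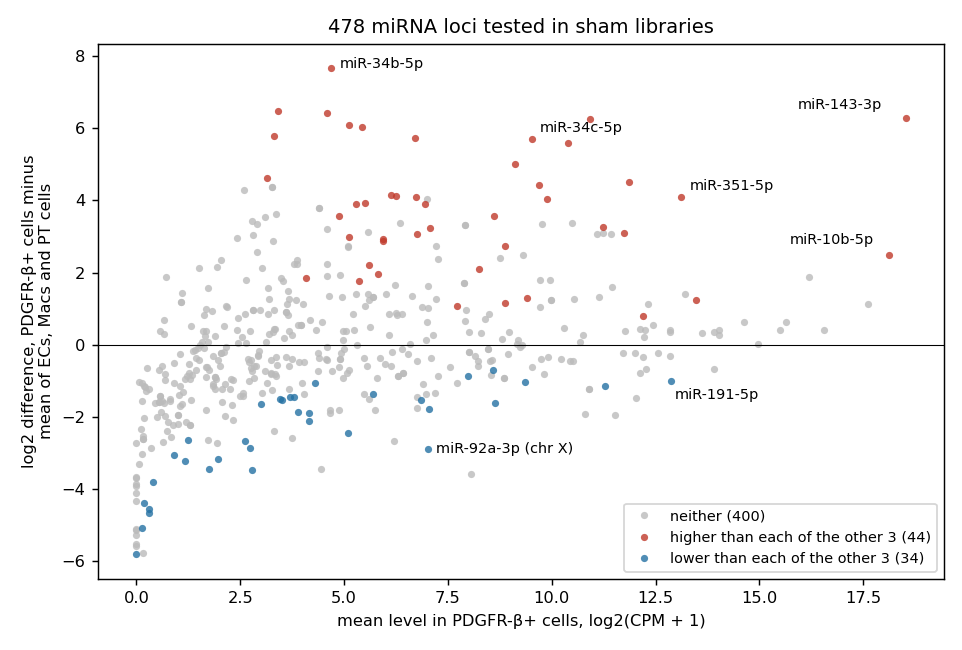
Each point is 1 of 478 tested miRNA loci, with the mean level in the 4 PDGFR-β+ sham libraries on the x axis (log2 of CPM plus 1) and the fitted log2 difference of PDGFR-β+ cells from the mean of ECs, Macs and PT cells on the y axis. Red points (44) were called higher than in each of the 3 populations and blue points (34) lower. The red points reach up to miR-143-3p, the most abundant locus, while most blue points lie at low levels.

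The cluster of miR-143 and miR-145 on chromosome 18 stood highest of all in abundance. All 4 of its tested strands were higher in PDGFR-β+ cells than in each other population (9.21% of all loci). Its miRNAs are known as regulators of the contractile state of smooth muscle. miR-143-3p (chr18:61649199-61649219) was at 354616, 426187, 313933 and 417417 CPM in PDGFR-β+ cells of mice 1 to 4. In ECs it was at 24919, 14188, 16404 and 11264 CPM, in Macs at 4431, 1802, 4041 and 3175 CPM and in PT cells at 3454, 2419, 2268 and 1495 CPM. The PDGFR-β+ libraries did not overlap with any other, and the EC library of mouse 1 was the nearest. The log2 difference from the mean was 6.28 (SE 0.188, n = 4 mice, edgeR FDR 1.26e-12) and lay between 5.61 and 6.79 in the single mice.

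miR-145a-3p averaged 1934 CPM in PDGFR-β+ cells against 79.6 in ECs, 17.8 in Macs and 11.6 in PT cells, a log2 difference of 6.27 (SE 0.234). miR-145a-5p averaged 1338 ± 408 CPM (SD, n = 4), 5.60 higher in log2 (SE 0.201), and miR-143-5p 104 CPM with a log2 difference of 5.73 (SE 0.350). The balance within the cluster, which needs no scaling between libraries, also had its highest values in PDGFR-β+ cells. There were 239 to 395 counts of miR-143-3p for each of miR-145a-5p in PDGFR-β+ cells, 121 to 180 in ECs, 158 to 312 in Macs and 140 to 219 in PT cells, so that the range overlapped with that of Macs. For miR-145a the 3p strand outnumbered the 5p strand by 1.34 to 1.89 in PDGFR-β+ cells, and the 5p strand was the more abundant in ECs, at a ratio of 0.668 to 0.801. The Mac ratio ran from 0.752 to 1.82 and the PT ratio from 0.375 to 1.07, both from few counts.

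All 7 tested strands of the miR-199 and miR-214 family were higher in PDGFR-β+ cells than in each other population (9.21% of all loci). Of these, miR-199b-5p, at 9.59 CPM, lost this call with mouse 1 left out and after thinning. These miRNAs are known from mesenchymal development and fibrosis. miR-199a-5p, miR-199a-3p, miR-214-5p and miR-214-3p lie on chromosome 1 within exons of the long non-coding RNA Dnm3os, on the strand opposite to Dnm3 (chr1:162217844-162223459), and the other loci lie opposite to introns of Dnm1 and Dnm2. miR-199a-5p was at 510, 618, 555 and 546 CPM in PDGFR-β+ cells, at 33.4, 51.4, 60.1 and 44.1 CPM in ECs, at 9.85, 13.4, 13.8 and 11.05 CPM in Macs and at 12.1, 4.61, 10.6 and 9.32 CPM in PT cells. The log2 difference from the mean was 5.01 (SE 0.144, edgeR FDR 1.11e-12), with 4.71 to 5.33 in the single mice. The PDGFR-β+ libraries stood close together and far above the rest.

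miR-199a-3p from the same hairpin was the most abundant member, at 3290, 3732, 4033 and 3716 CPM in PDGFR-β+ cells and 357 to 577 CPM in ECs, with Macs and PT cells at 68.6 to 118 CPM. Its log2 difference of 4.51 (SE 0.120) had the lowest FDR of all loci, 7.31e-13. miR-199b-3p, whose reads cannot be told from those of miR-199a-3p by sequence, was at 831 ± 63.9 CPM (SD, n = 4) and 4.41 higher in log2 (SE 0.162). How the authors placed reads that fit several loci is not given in the sources used here, so the split between the miR-199 loci is uncertain. Summed over its 3 loci the strand was at 4532 CPM in PDGFR-β+ cells, 527 CPM in ECs, 113 CPM in Macs and 139 CPM in PT cells. miR-214-3p was at 70.0, 66.0, 72.0 and 68.2 CPM against 8.29 to 16.6 CPM in ECs. miR-214-5p was at 31.0 to 36.4 CPM and had no count in PT cells, which puts it at least 11.8-fold higher than there at a floor of 3 counts per library. The median log2 difference of the 7 strands was 5.01, or 4.16 with the 3 strands that had no count in PT cells set to their bound, beside -0.23 over all tested loci.

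miR-34b and miR-34c, which share a primary transcript opposite to an intron of Btg4 on chromosome 9 (chr9:51103076-51103632) and are known as targets of the tumour suppressor Trp53 and for a part in forming ciliated cells, stood far above their level elsewhere. miR-34b-5p was at 18.8, 30.0, 23.1 and 27.8 CPM in PDGFR-β+ cells, at 0 to 1.27 CPM in ECs, at 0 in 3 Mac libraries and 0.398 CPM in the fourth, and at 0 in all PT libraries. It was therefore at least 8.81-fold higher than in PT cells, and its fitted log2 difference of 7.66 (SE 0.778) depends on the prior count. miR-34b-3p from the other arm was at 19.8, 25.5, 13.4 and 33.6 CPM against 1.78 to 5.23 CPM in ECs and at least 8.15-fold higher than in PT cells. miR-34c-5p had counts in every library, with 592, 893, 570 and 879 CPM in PDGFR-β+ cells, 24.9 to 38.5 in ECs, 1.42 to 20.5 in Macs and 6.52 to 10.6 in PT cells. Its log2 difference was 5.71 (SE 0.307, edgeR FDR 5.09e-10).

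The third gene of the family went the other way. miR-34a-5p was at 22.7, 13.5, 9.23 and 13.9 CPM in PDGFR-β+ cells and 6.72 to 14.6 CPM in ECs, with higher levels of 75.0 to 85.7 CPM in Macs and 31.1 to 46.5 CPM in PT cells. It was lower than the mean of the other populations by a log2 difference of -1.07 (SE 0.209, edgeR FDR 0.00047). Of the 11 loci of the miR-34 and miR-449 family 4 were tested, and the miR-449 loci had too few counts. The reads of both arms of miR-34b can be followed on its hairpin, shown from RefSeq with the miR-34b-5p and miR-34b-3p strands in capitals.
Mir34b: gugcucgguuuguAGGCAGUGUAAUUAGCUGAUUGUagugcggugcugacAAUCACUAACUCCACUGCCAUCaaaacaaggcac

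**Figure D2:**
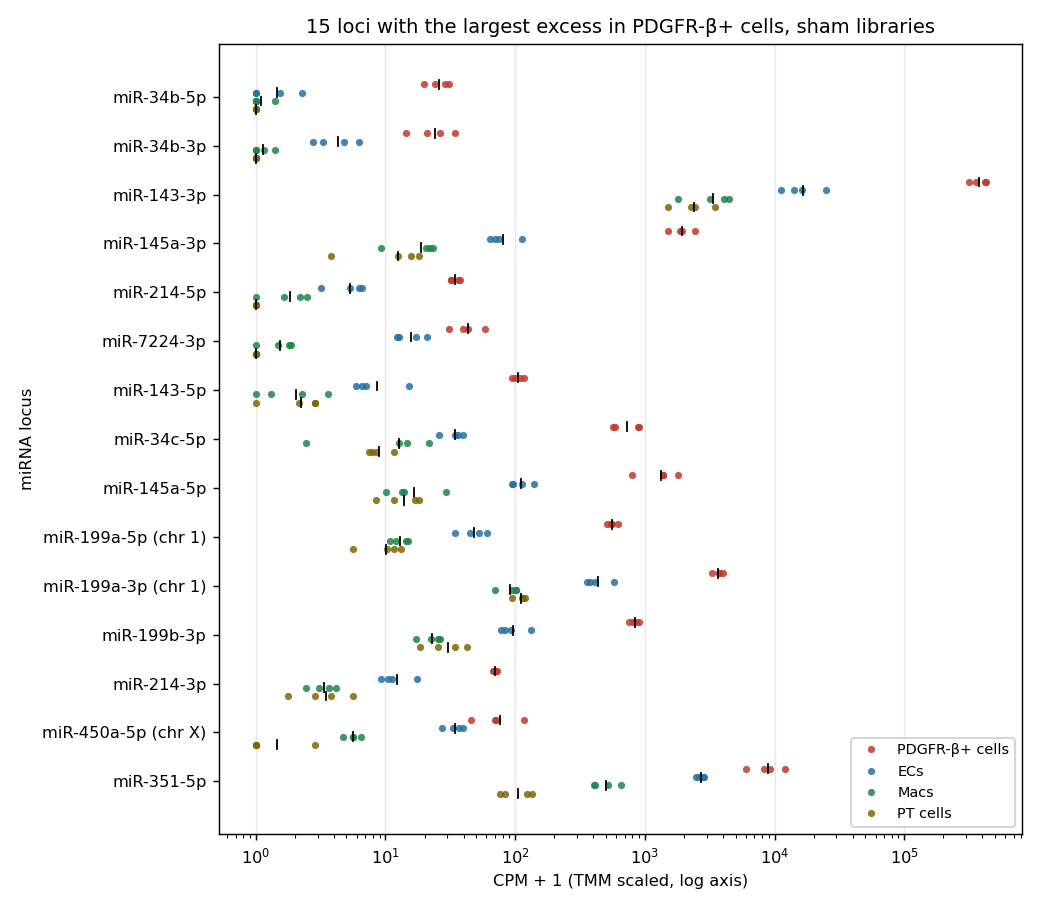
TMM-scaled CPM plus 1 on a log axis for the 15 loci with the largest excess in PDGFR-β+ cells, each point 1 sham library and each black bar the mean of 4. Libraries without a count lie at 1. All red points lie to the right of the other colours in each row, which the rule for these loci required, and ECs are the next population at all of them.

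The cluster on the X chromosome that holds miR-322, miR-503, miR-351, miR-542 and miR-450 (chrX:53048008-53054327) gave 10 tested loci. All were higher than the mean of the other populations (28.9% of all loci) and 6 were higher than each (9.21% of all). miR-322 and miR-503 are best known for holding back the cell cycle. miR-351-5p was at 12050, 9219, 5968 and 8345 CPM in PDGFR-β+ cells, at 2458 to 2875 CPM in ECs, at 407 to 650 CPM in Macs and at 75.9 to 132.9 CPM in PT cells. Its log2 difference from the mean was 4.08 (SE 0.161, edgeR FDR 1.54e-11) and that from ECs 1.70. miR-450a-5p, miR-450b-5p, miR-542-5p and miR-542-3p followed the same order of populations at lower levels, with 44.2 to 123 CPM on average in PDGFR-β+ cells. The call of miR-450b-5p against each population was lost in 6 of the 11 alternative settings, among them mouse 1, 2 or 4 left out, and that of miR-542-5p in 3, among them mouse 1 or 4 left out. The members next to the other end of the cluster did not part from ECs. miR-322-5p was at 1989 to 3641 CPM in PDGFR-β+ cells and 1856 to 2968 CPM in ECs, a log2 difference of 0.26 (edgeR FDR 0.297), and miR-322-3p and miR-503-3p also missed the call against ECs. So did miR-450b-3p, which lies at the miR-450 end of the cluster and had 140 counts in all sham libraries together. The median of the list was 3.63 beside -0.23 for all loci.

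Grouping by position left out the 55 tested loci without a RefSeq match, among them the miR-143 and miR-145 strands and miR-34c-5p. Their clusters, described above, could therefore not be counted here. Matched loci formed 31 groups of at least 3 within 10 kb on a strand. Those around miR-351 and around miR-199a and miR-214 were the pair with 3 or more loci higher than in each other population. They held 10 of the 44. In 7 of the 31 groups every locus was called in a common direction against the mean. The cluster of miR-497 and miR-195 on chromosome 11 was such a group. miR-497a-5p was at 818, 1059, 781 and 1120 CPM in PDGFR-β+ cells, 412 to 508 CPM in ECs, 11.7 to 30.1 CPM in Macs and 11.2 to 30.0 CPM in PT cells, and was higher than in each. miR-195a-5p averaged 871 CPM in PDGFR-β+ cells and 627 CPM in ECs, a log2 difference of 0.47 that missed the call (edgeR FDR 0.0536), and both lay far above Macs (34.7 CPM) and PT cells (27.9 CPM).

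The Hox clusters mark the position of a cell along the body axis. Of 12 loci of miRNAs encoded in them, 10 were higher than the mean, beside 28.9% of all loci. In this list 3 loci were higher than in each other population, beside 9.21% of all. miR-10b-5p, in an intron of Hoxd3 and Hoxd4 on chromosome 2, was the second most abundant locus. It was at 295857, 308387, 229679 and 313991 CPM in PDGFR-β+ cells, 117848 to 187310 CPM in ECs, 10113 to 16047 CPM in Macs and 62607 to 75601 CPM in PT cells. The log2 difference from ECs was 0.93 (edgeR FDR 0.000197) and from the mean 2.49 (SE 0.116). miR-10a-5p, next to Hoxb4 and 1 base apart in sequence, had the opposite order, with 172739 to 213039 CPM in PDGFR-β+ cells and 295384 to 392921 CPM in ECs, a log2 difference of -0.72 (edgeR FDR 5.01e-05).

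The ratio of miR-10b-5p to miR-10a-5p within a library was 1.33 to 1.48 in PDGFR-β+ cells, 0.381 to 0.591 in ECs, 0.298 to 0.429 in Macs and 1.01 to 1.19 in PT cells. The ranges of PDGFR-β+ cells and ECs thus lay on either side of 1 in every mouse. Together the 2 strands came to 486084 CPM in PDGFR-β+ cells and 483520 CPM in ECs. Several miR-196 and miR-615 loci were at like levels in PDGFR-β+ cells and PT cells. miR-196a-5p from chromosome 15 averaged 2179 CPM in PDGFR-β+ cells and 1613 CPM in PT cells, with 178 CPM in ECs and 65.1 CPM in Macs, and miR-615-3p averaged 148 CPM and 153 CPM with 12.8 CPM and 5.75 CPM. Neither was called against PT cells, where the log2 difference of miR-615-3p was -0.04 (edgeR FDR 0.892). miR-196a-2-3p, from the other arm of the chromosome 15 hairpin, was higher than in each population, at 28.5 CPM against 8.90 CPM in PT cells.

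Seeds brought further contrasts. Only loci matched in RefSeq were grouped by seed, so the 55 others, such as miR-34c-5p and miR-30d-5p, were left out. There were 41 seeds carried by at least 2 matched names. Of these, 8 had a locus higher and a locus lower than the mean. A locus higher than each and another lower than each population were found in 2. These loci were chosen for description after their values were seen. In the AGCAGCA family miR-497a-5p was higher than each and miR-15b-5p lower than each. miR-15b-5p was at 17.5, 20.7, 13.8 and 14.9 CPM in PDGFR-β+ cells, 39.5 to 56.6 CPM in ECs, 131 to 188 CPM in Macs and 20.4 to 51.9 CPM in PT cells, a log2 difference of -1.89 (SE 0.209, edgeR FDR 1.64e-06). The ratio of miR-497a-5p to miR-15b-5p in a library was 46.6 to 75.3 in PDGFR-β+ cells, 8.98 to 11.4 in ECs and at most 1.09 in Macs and PT cells. miR-16-5p, the most abundant member, was lower than in Macs and was not called against ECs or PT cells. Summed over 7 loci, this seed came to 14529 CPM in PDGFR-β+ cells, 12076 in ECs, 26269 in Macs and 7140 in PT cells.

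In the CAGUGCA family miR-148a-3p was at 3489, 1945, 1980 and 2147 CPM in PDGFR-β+ cells against 182 to 327 CPM in ECs, 95.6 to 179 CPM in Macs and 460 to 541.9 CPM in PT cells. It was 1 of 8 loci for which PT cells came next. miR-148b-3p was at 380, 358, 394 and 402 CPM, below the 527 to 732 CPM of all other libraries. The log2 differences from the mean were 3.27 (SE 0.104) and -0.71 (SE 0.097), with edgeR FDRs of 2.23e-12 and 1.54e-05. The call of miR-148b-3p as lower than each was lost in 5 of 11 settings, with mouse 2 or 3 left out among them. miR-152-3p, from an intron of Copz2, was lower than in ECs without reaching the fold limit and higher than in Macs and PT cells. In the AGUGCAA family miR-130a-3p averaged 3422 CPM in PDGFR-β+ cells, 820 in ECs, 80.5 in Macs and 969 in PT cells, and miR-301a-3p 466 CPM against 143.4 to 286 CPM. The call of miR-301a-3p against each population was made in 4 of 11 settings and lost with mouse 1 or 2 left out. miR-130b-3p of the same seed was at 14.4 to 26.4 CPM in PDGFR-β+ cells, lower than in ECs (21.8 to 41.4 CPM) and Macs (97.2 to 160 CPM) and higher than in PT cells (4.61 to 10.2 CPM).

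Other loci higher than in each population were spread over many families. miR-100-5p averaged 388 CPM against 195.3 CPM in ECs and 7.94 CPM in PT cells. Its call against each population was lost in 6 of 11 settings, with DESeq2, RLE factors, no mouse block and mouse 1, 3 or 4 left out. The let-7c, miR-99 and miR-125b list to which it belongs gave 3 higher and 1 lower call against the mean among 11 loci. Of all loci 28.9% were called higher and 26.2% lower. The median of the list was 0.15, and miR-125b-1-3p (60.8 CPM) was its other member higher than each. miR-132-3p, known as a target of the factor Creb, was at 80.3 to 200 CPM against 59.3 to 76.8 CPM in ECs, a call lost with mouse 1, 2 or 4 left out and after thinning. The seed partner miR-212-3p lay above all 12 other libraries at 16.3 to 28.2 CPM without passing against ECs (edgeR FDR 0.0708). miR-210-3p, known to be induced by low oxygen, averaged 47.3 CPM with Macs next at 20.7 CPM. let-7i-5p averaged 11355 CPM and exceeded ECs by 1.51-fold, at the edge of the fold limit, and was called against each population in 2 of 11 settings, without the block and with mouse 3 left out.

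miR-29 strands, which repress collagen genes, were not uniformly high. miR-29c-3p was higher in PDGFR-β+ cells, at 565 to 799 CPM against 177 to 360 CPM in the other populations, a log2 difference of 1.31 (SE 0.104, edgeR FDR 4.57e-08). miR-29a-3p, the most abundant, averaged 1452 CPM and was lower than in ECs (2809 CPM) and Macs (2871 CPM). Only 1 of 7 tested loci of this family was called higher than the mean, beside 28.9% of all loci, and the median was -0.11. The strand miR-29a-3p has the seed AGCACCA of miR-29c-3p, and summed over the family PDGFR-β+ cells had 2177 CPM against 3169 CPM in ECs.

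Of 6 tested loci in introns of genes linked to connective tissue, 2 were higher and 1 lower than the mean, shares near the 28.9% and 26.2% of all loci. miR-218-5p from an intron of Slit2 averaged 39.8 CPM and was higher than in each population, a call lost without a filter, under library totals and with mouse 1, 3 or 4 left out. miR-335-5p, from an intron of Mest, was at 11.6, 10.2, 17.5 and 7.68 CPM in PDGFR-β+ cells and 541.9 to 858 CPM in ECs, a log2 difference of -5.95 (edgeR FDR 2.26e-09). Muscle miRNAs were almost without counts. Of 20 loci only miR-133a-3p from chromosome 2 could be tested, with a mean of 47.8 CPM and a range of 14.8 to 132 CPM in PDGFR-β+ cells and a mean of 179 CPM in ECs.

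The imprinted Dlk1-Dio3 region on chromosome 12, known for miRNAs that are active in the embryo and in stem cells, put PDGFR-β+ cells second to ECs. Of its 116 loci 25 were tested, and 24 of them were lower than in ECs (27.2% of all loci). Of the 25, 20 were higher than in Macs (36.2% of all) and 14 higher than in PT cells (31% of all). None was higher than in each. miR-127-3p was at 638, 370, 499.1 and 202 CPM in PDGFR-β+ cells, 2653 to 3914 CPM in ECs, 1.71 to 58.1 CPM in Macs and 5.59 to 25.1 CPM in PT cells. miR-411-5p averaged 154 CPM against 755, 5.78 and 6.98 CPM in the same order. Against the mean of the 3 populations 13 loci were called higher (28.9% of all). The median of the list was 1.87, and 0.84 when the 18 loci that had a population without any count were set to their bound. Pairs that overlap on opposite strands, such as miR-136-5p and miR-3071-3p, had nearly equal levels (8.64 and 8.69 CPM), and the sources used here do not say whether the strand was counted.

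**Figure D3:**
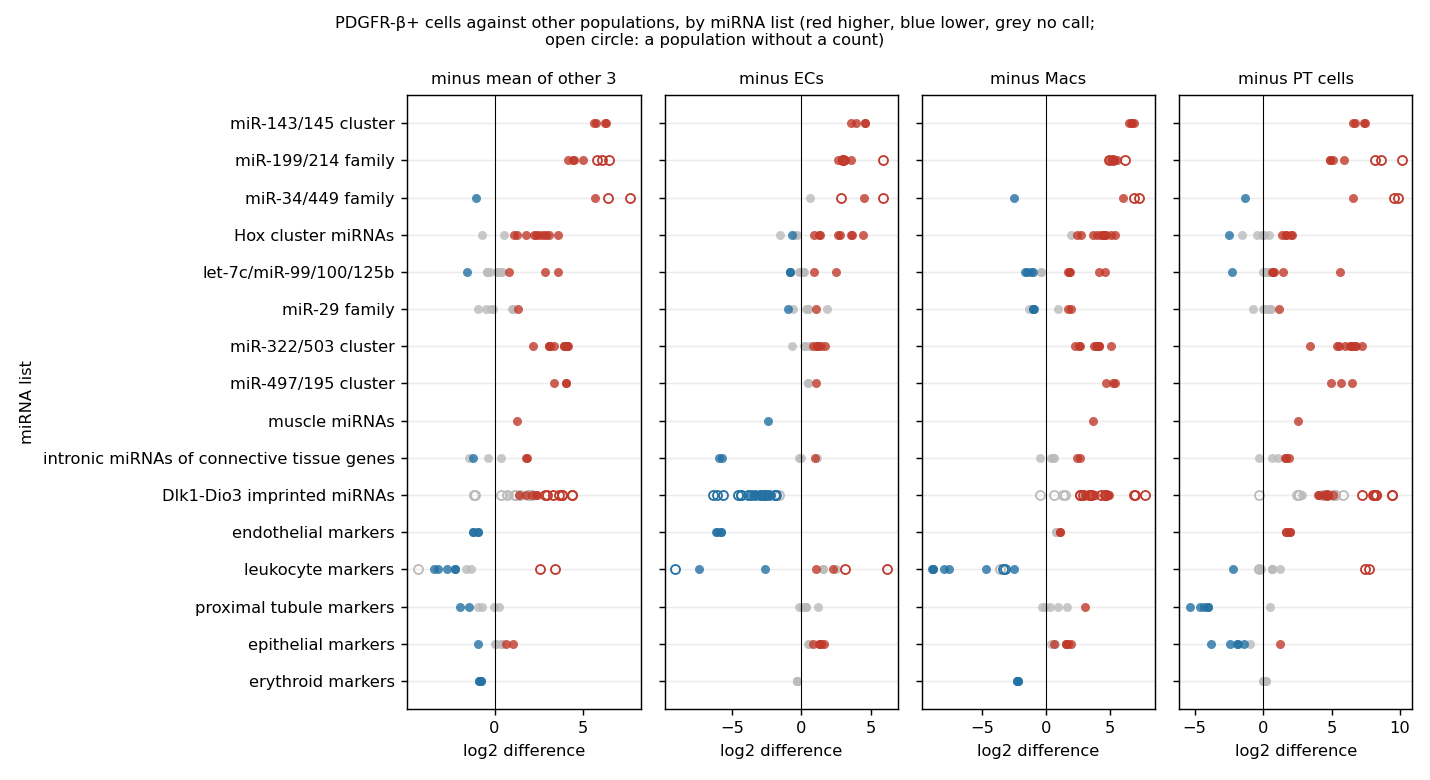
Log2 differences of PDGFR-β+ cells in sham from the mean of the other populations and from ECs, Macs and PT cells, by list, with 1 circle per tested locus. Red marks loci called higher, blue lower and grey neither, and open circles mark loci for which a population had no count, where the fitted value depends on the prior count. The lists of miR-143 and miR-145 and of miR-199 and miR-214 are red in all panels, while the Dlk1-Dio3 list is blue against ECs in 24 of 25 loci and red against Macs in 20.

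Most marker miRNAs of the other populations were low in PDGFR-β+ cells against their own population. All 4 endothelial loci were lower than in ECs (27.2% of all loci). There miR-126a-5p was at 122136 to 145791 CPM, against 1769 to 2106 CPM in PDGFR-β+ cells. All 4 were higher than in PT cells (31% of all), and 2 were higher than in Macs (36.2% of all). The summed endothelial level was 4430 to 5176 CPM in PDGFR-β+ cells, 292664 to 353345 CPM in ECs and 614 to 6144 CPM in Macs. The miR-126b loci overlap miR-126a on the opposite strand, so the 4 loci are not separate evidence. Of 10 leukocyte loci 9 were lower than in Macs (32.8% of all loci). Against ECs 4 were higher (16.7% of all) and 3 lower (27.2% of all). Against PT cells 2 were higher (31% of all) and 1 lower (29.3% of all). Their summed level was 94.2 to 198.8 CPM in PDGFR-β+ cells and 33726 to 39531 CPM in Macs. miR-142b overlaps miR-142a-3p on the opposite strand at nearly equal levels, so this pair is not separate evidence. None of the leukocyte loci was higher than in Macs, while miR-511-3p, from the mannose receptor gene of macrophages, was at 5.07 to 7.51 CPM in PDGFR-β+ cells, 57.2 to 68.0 CPM in Macs, 0.318 to 1.38 CPM in ECs and 0 in PT cells. miR-223-3p ran from 2.70 to 51.7 CPM within the sort.

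Of the 6 proximal tubule loci 5 were lower than in PT cells (29.3% of all loci). The other, miR-215-5p, averaged 2.71 CPM in PDGFR-β+ cells and 1.89 CPM in PT cells, below the floor of 3 counts there. The summed level was 2005 to 3772 CPM in PDGFR-β+ cells, 2756 to 4375 CPM in ECs and 102919 to 129653 CPM in PT cells. The epithelial miR-200 and miR-141 loci differed from this. They were higher than in ECs (16.7% of all loci) and than in Macs (36.2% of all) at 5 of 7 loci each. At 5 of 7 they were lower than in PT cells (29.3% of all). Their summed level was 1081 to 2192 CPM in PDGFR-β+ cells, 630 to 986 CPM in ECs, 505 to 650 CPM in Macs and 5512 to 6249 CPM in PT cells. miR-141-3p alone of this list was called higher than in each population, at 289, 117, 249 and 188 CPM with 110, 65.7, 69.1 and 98.8 CPM in PT cells, and the value of mouse 2 lay below 3 Mac libraries and 1 EC library. This call was made in 2 of 11 settings, without the block and with mouse 2 left out. The 4 erythroid loci tested were arms of miR-486a and miR-486b, whose totals nearly matched in pairs, so they are not separate evidence. They were lower than in Macs (32.8% of all loci) and were not called against ECs or PT cells. miR-451a and miR-144 had too few counts to be tested. The part of cells from other sorts in these values was not tested.

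The 34 loci lower than in each other population were mostly of low abundance. Of the 10 that the rule names, miR-92a-3p from the X chromosome (chrX:52741854-52741874) was the most abundant by far. It was at 131, 140, 120 and 125.3 CPM in PDGFR-β+ cells, at 556 to 626 CPM in ECs, at 1344 to 1546 CPM in Macs and at 938 to 1175 CPM in PT cells. The log2 difference from the mean was -2.91 (SE 0.105, edgeR FDR 7.18e-12) and lay between -2.99 and -2.74 in the single mice. It belongs to a family known for driving proliferation. Its copy on chromosome 14 has the same mature sequence and most of the counts, so the split between the copies is uncertain. That copy was at 3905 to 4688 CPM in PDGFR-β+ cells, 11753 to 12520 CPM in ECs, 26069 to 27971 CPM in Macs and 4449 to 5006 CPM in PT cells, and was not called against PT cells. With both copies summed, the log2 difference of miR-92a-3p from the mean was -1.43 (SE 0.070).

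miR-1249-3p was at 4.06, 7.20, 6.92 and 5.28 CPM in PDGFR-β+ cells, 37.9 to 47.3 CPM in ECs, 91.8 to 213.97 CPM in Macs and 34.6 to 55.9 CPM in PT cells, with a log2 difference of -3.47 (SE 0.258). miR-155-5p, an immune regulator, was at 2.77, 1.50, 6.46 and 0.96 CPM, below the 6.51 to 95.0 CPM of all other libraries. miR-8094, within an exon of Ddx39b, had 0 to 0.600 CPM against 17.7 to 39.2 CPM in PT cells. miR-185-5p had a count in a single PDGFR-β+ library and 10.4 to 48.5 CPM in PT cells, and its call was lost with mouse 2, 3 or 4 left out. miR-8114 lies in an exon of Glul, miR-7068-3p in an exon of Cherp, miR-8112 in an exon of Krcc1 and miR-1249-3p in an exon of 5031439G07Rik. Reads of these names and of miR-8094 can therefore also come from the messenger RNA. The call of miR-7068-3p was lost with mouse 1 or 2 left out. miR-582-3p, miR-1981-3p and miR-8112 averaged 1.24 to 5.64 CPM in PDGFR-β+ cells and at least 7.70 CPM in each other population.

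**Figure D4:**
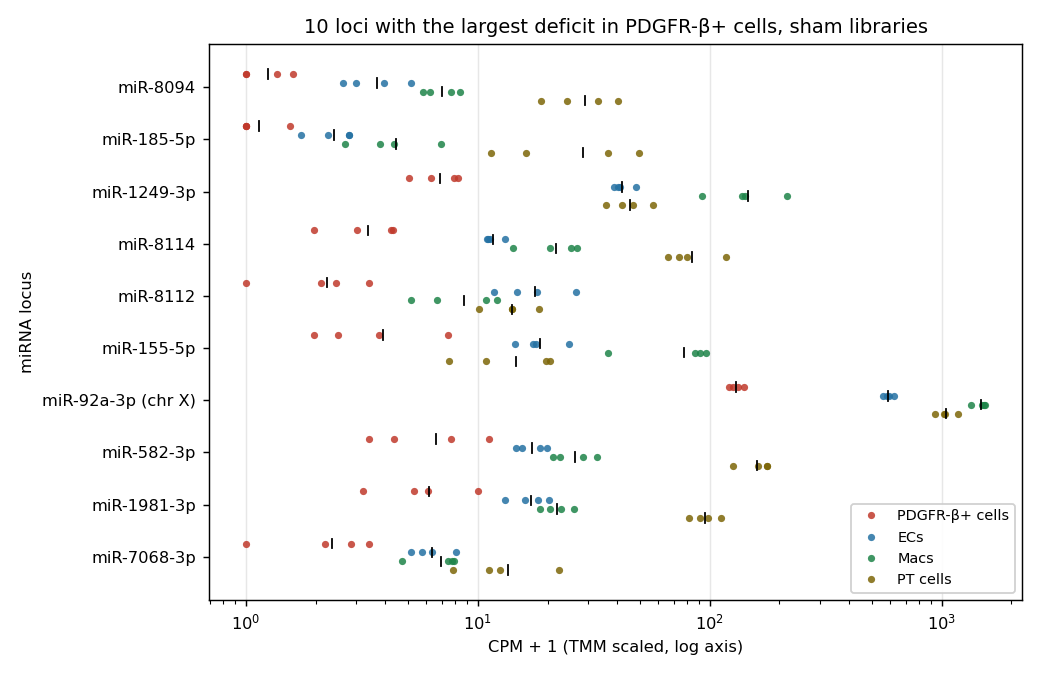
TMM-scaled CPM plus 1 on a log axis for the 10 loci with the largest deficit in PDGFR-β+ cells, each point 1 sham library and each black bar the mean of 4. Libraries without a count lie at 1. All red points lie to the left of the others in each row, as the rule required, and only miR-92a-3p exceeds 100 CPM in PDGFR-β+ cells.

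Abundant loci also stood among the 34, and those named here were chosen after their values were seen. miR-191-5p was at 6614 to 7915 CPM in PDGFR-β+ cells and 11316 to 25868 CPM in the other populations, a log2 difference of -1.02 (SE 0.089), and was not called against each under library totals or with all libraries. miR-423-5p averaged 2510 CPM against 5088 to 6503 CPM. miR-221-3p and miR-222-3p, which share a seed and a cluster on the X chromosome and restrain the cell cycle inhibitor Cdkn1b, were at 84.4 to 154 CPM and 330 to 512 CPM. They were highest in PT cells, at 564 to 631 CPM and 2134 to 2678 CPM. All 3 tested loci of their cluster were lower than the mean (26.2% of all loci).

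The 10 most abundant loci in PDGFR-β+ cells were mostly abundant in every population. After miR-143-3p, miR-10b-5p and miR-10a-5p came let-7f-5p from the X chromosome with 81179 to 110597 CPM in PDGFR-β+ cells and 84949 to 103008 CPM in ECs, a log2 difference of 0.02 (edgeR FDR 0.886). miR-27b-3p was at 66021 to 79645 CPM in PDGFR-β+ cells and 93403 to 102442 CPM in ECs, with at most 12191 CPM in Macs and PT cells, so that it was shared by the stromal and the endothelial sort. miR-26a-5p from chromosome 10 was at 47052 to 54972 CPM and 54049 to 65025 CPM in the same 2 populations. miR-22-3p was at 40728 to 48810 CPM, between the ECs (19872 to 24179 CPM) and the PT cells (71641 to 77950 CPM). miR-30a-5p had a log2 difference from the mean of 0.02 (SE 0.074, edgeR FDR 0.83), being lower than in ECs and higher than in Macs. let-7c-5p from chromosome 16 was at 14822 to 18710 CPM against 25202 to 33290 CPM in ECs. miR-30d-5p was at 14756 to 17933 CPM and at 11572 to 16771 CPM elsewhere. Of these 10 loci miR-143-3p and miR-10b-5p were higher than in each population, and miR-10a-5p, miR-27b-3p and miR-26a-5p were called higher than the mean. With DESeq2 miR-26a-5p fell short of the fold limit, at a log2 difference of 0.53.

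Whether the sham pattern was seen in injured and repairing kidneys was read from separate mice and separate fits. Obstruction of the ureter lasted 2 days (UUO-2) or 7 days (UUO-7), or was reversed (R-UUO). UUO-7 has 3 PDGFR-β+ libraries. All 44 sham loci could be tested in the 3 conditions. Against the mean of the other populations 42 were called higher at UUO-2, where 26.7% of all tested loci were, 36 at UUO-7 (30% of all) and 40 in R-UUO (28.6% of all). Higher than in each population were 34 (8.82% of all), 29 (18.8% of all) and 29 (11.7% of all). The median log2 difference of the 44 was 3.90 in sham, where they were chosen, and 2.77, 3.02 and 2.71 in the other conditions. The difference between conditions was not tested.

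All 7 miR-199 and miR-214 loci, miR-34b and miR-34c, miR-497a-5p, miR-148a and miR-100-5p were higher than in each population in all 4 conditions. miR-199a-5p had log2 differences of 5.55 (SE 0.172) at UUO-2, 6.66 (SE 0.183) at UUO-7 and 6.20 (SE 0.282) in R-UUO. miR-143-3p had 4.87 (SE 0.131), 3.97 (SE 0.151) and 3.21 (SE 0.408), and like miR-145a-3p was higher than in each population throughout. The other strands of the cluster, miR-145a-5p and miR-143-5p, lost that call in R-UUO. Their log2 differences from the mean there were 1.89 (SE 0.493) and 1.90 (SE 0.576). miR-10b-5p had 2.27 (SE 0.081) at UUO-2 and was not called at UUO-7, with 0.27 (SE 0.132, edgeR FDR 0.0994), or in R-UUO, with 0.27 (SE 0.331, edgeR FDR 0.504). miR-351-5p had 2.33 (SE 0.096), 0.69 (SE 0.128) and 2.24 (SE 0.350). The miR-450 loci and miR-542-5p were not called at UUO-7. miR-29c-3p was 1.39 (SE 0.103) higher at UUO-2 and lower than the mean in R-UUO at -0.62 (SE 0.225, edgeR FDR 0.0303).

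**Figure D5:**
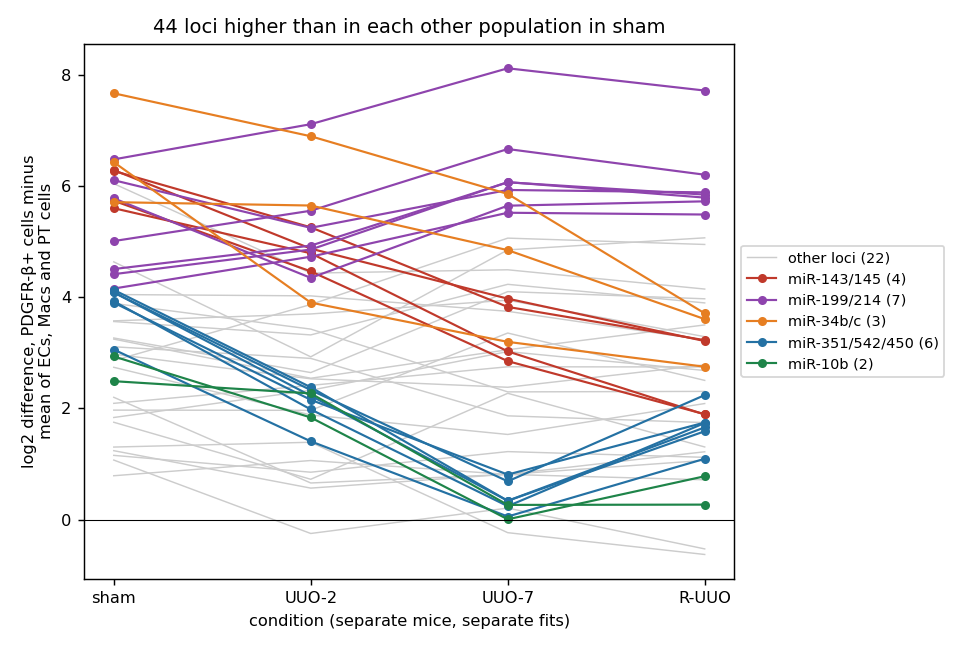
Fitted log2 difference of PDGFR-β+ cells from the mean of ECs, Macs and PT cells for the 44 loci chosen in sham, in 4 conditions fitted separately in separate mice. Lines join the values of a locus and coloured lines mark 5 families, with the number of loci in brackets. The miR-199 and miR-214 lines stay above 4 in all conditions, and the lines of miR-351, miR-542, miR-450 and miR-10b lie below 1 at UUO-7.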

How the data were processed

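Small RNA libraries of sorted cells from 4 sham mice were compared. The authors trimmed paired-end reads (Trim Galore 0.4.1, cutadapt 1.1), used ShortStack with Bowtie for alignment on GRCm38 with the loci of miRBase 22, and deposited raw read counts per locus of a mature miRNA, not normalized or pooled. Strand use and the placement of reads that fit several loci are not given in the sources used here. Samples were grouped by their titles.

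Loci passing edgeR's filterByExpr by population were kept, scaled by TMM over the 16 libraries and tested in R 4.3.3 with edgeR 4.0.16 (quasi-likelihood, population plus mouse, Benjamini-Hochberg FDR under 0.05, fold change above 1.5). Libraries of equal number came from the same animal by the series design. Their deviations from the population means correlated at -0.15 to 0.336 (mean 0.0724), and those of different mice at a mean of -0.0243. The latter is not a separate comparison, because deviations from a population mean cancel over its mice. Log2 CPM used a prior count of 2. Named loci were the 15 with the largest excess (mean of at least 10 CPM) and the 10 with the largest deficit among loci without overlap that were called against each population, the 10 most abundant in PDGFR-β+ cells, both sort markers and members of the lists. The members and lists were chosen with earlier results of these data known. Seeds, coordinates and genes come from RefSeq and GENCODE M21.

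In simulated counts for the contrast with the mean over 478 loci, 61 of 100 loci changed by a log2 of 1 and 83 of 100 changed by 2 were called in the right direction, none in the wrong one, and 4 of 278 unchanged loci were called. Alternatives were DESeq2 1.42.0, other scalings, no filter, no mouse block, all 63 libraries, loci of 1 miRNA summed and each mouse left out. The fit of all 63 libraries also had no mouse block. Thinning to 622689 counts was added after seeing the data.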

Additional observations from a re-analysis of the deposited data

Results flagged for a closer look

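In 10 of 136 groups of 4 libraries checked among the named loci, 1 library stood far from the other 3 relative to the range of the group. Chance flags about 1 in 20 groups, but this rate does not hold where all but 1 library had no count. Such groups, here those of miR-34b-5p, miR-185-5p and miR-450a-5p, are always flagged. In PDGFR-β+ cells miR-22-3p was lowest in mouse 3, at 40728 CPM beside 47834 to 48810 CPM, and miR-185-5p had 0.554 CPM in mouse 1 and 0 in the others. In ECs miR-143-5p was at 14.1 CPM in mouse 1 beside 4.94 to 6.04 CPM, miR-26a-5p from chromosome 10 at 65025 CPM in mouse 3 beside 54049 to 55655 CPM, and miR-8114 at 12.1 CPM in mouse 4 beside 10.0 to 10.3 CPM. In Macs miR-155-5p was at 35.4 CPM in mouse 1 beside 85.3 to 95.0 CPM, miR-22-3p at 24851 CPM in mouse 1 beside 26126 to 26265 CPM, miR-7068-3p at 3.70 CPM in mouse 2 beside 6.47 to 6.90 CPM, and miR-34b-5p at 0.398 CPM in mouse 1 beside 0. In PT cells miR-450a-5p (chrX:53048206-53048227) was at 1.86 CPM in mouse 1 beside 0. The values of miR-34b-5p, miR-185-5p and miR-450a-5p rest on counts near the floor of 3.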

How the results depend on the processing

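Scaling by library totals alone moved the most values. Against the mean it gave 17.2% of loci higher and 45.6% lower, beside 28.9% and 26.2% as reported, against Macs 95 loci higher and 243 lower, and against PT cells 87 and 221. The log2 difference from the mean then turned negative for let-7f-5p (-0.32), miR-26a-5p (-0.12), miR-22-3p (-0.33), miR-30a-5p (-0.72), let-7c-5p (-0.33) and miR-30d-5p (-0.48), and miR-10a-5p, miR-29c-3p, let-7i-5p, miR-301a-3p, miR-101a-3p and miR-141-3p kept their sign without a call. There were then 32 loci higher than in each population, 31 of them among the 44. miR-26a-5p lost its call at 0.44 to 0.58 with DESeq2, RLE factors, no filter, all libraries, thinning or mouse 1, 2 or 4 left out, and miR-148b-3p at -0.57 with loci summed. The cause was not tested. Thinning to the smallest library, with 319 loci left to test, took the number lower than in ECs to 80, that higher than in each population to 30 and that lower than in each to 25. The log2 difference of miR-30a-5p, at 0.02 and not called, was -0.0719 with DESeq2 as with RLE factors, -0.12 without a filter, -0.0172 with all 63 libraries, -0.17 after thinning and -0.0968 to 0.0404 with a mouse left out.

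Without the replicate block, that is without pairing by mouse, 28.5% of loci were higher than the mean and 27.2% lower, 44 were higher than in each population (42 shared) and 36 lower than in each (34 shared), and no log2 difference from the mean given here turned or lost its call. With a mouse left out 33 to 43 loci were higher than in each population and 26 to 32 lower. The loci higher than in each population numbered 40 with DESeq2 (38 shared), 40 with RLE factors (39), 37 without a filter (36), 50 with all libraries (41) and 30 after thinning (28). In this comparison the shallow PT libraries limit how low a level can be measured there.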
